A study of Homo sapiens with 6 samples.

Results

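The IFIT and IFITM families are 2 groups of interferon-induced antiviral genes, followed here as IFIT1, IFIT2, IFIT3, IFIT5, IFITM1, IFITM2 and IFITM3. The 7 genes were taken by symbol from the 62260 gene rows of each library, and all 7 were among the 14166 genes abundant enough to be tested. The libraries came from TYK-nu, an established human ovarian cancer line. One group was wild-type TYK-nu (WT) and the other was TYK-nu with a knockout of ZNFX1, a gene for a helicase-like zinc finger protein that takes part in antiviral RNA sensing (ZNFX1 KO, or KO). Neither group was given a drug, both grew in RPMI-1640 with serum, and each had 3 libraries of total RNA that are labelled as biological replicates of a single batch. Nothing further says that the replicates came from separate cultures, so the p-values speak of the spread among these libraries only. No further KO clone and no method of knockout are named, so loss of ZNFX1 and any other difference of the KO cells cannot be told apart.

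IFIT proteins are cytoplasmic RNA-binding proteins built from tetratricopeptide repeats. IFIT1 binds messenger RNA whose cap lacks ribose methylation, the mark by which many viral RNAs differ from the cell's own, and keeps it from being translated. IFITM proteins are small membrane proteins that hinder the fusion of viral and cellular membranes: IFITM1 mostly at the cell surface, IFITM2 and IFITM3 mostly in endosomes. Both families are switched on when type I interferon, through its receptor and the kinases JAK1 and TYK2, activates the transcription factor complex ISGF3. ISGF3 binds a sequence called the interferon-stimulated response element (ISRE) in the promoters of its targets.

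The 4 IFIT genes lie in a cluster on the plus strand of chromosome 10 (GRCh38, GENCODE 29 models). IFIT2 (ENSG00000119922.11) runs from 89283694 to 89309276, IFIT3 (ENSG00000119917.15) from 89327894 to 89340971, IFIT1 (ENSG00000185745.10) from 89392546 to 89406486 and IFIT5 (ENSG00000152778.10) from 89414586 to 89421001. The IFITM genes lie together on chromosome 11. IFITM2 (ENSG00000185201.18, 307631 to 315272, plus strand) and IFITM1 (ENSG00000185885.17, 313506 to 315272, plus strand) have models that overlap, and IFITM3 (ENSG00000142089.17, 319669 to 327537) lies on the minus strand.

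Matches to the ISRE were present in each promoter that could be examined. RefSeq promoter windows on GRCh38.p14, from 250 bases before to 50 after a transcription start, were found for 5 of the 7 genes (6 windows, since IFIT3 has 2 starts). The ISRE core was searched on both strands as GAAA, any 2 bases and GAAA again, which reads TTTC, any 2 bases and TTTC on the other strand. Each stretch below is written 5′ to 3′ on the gene's strand, with the ISRE cores in capitals. The stretches are parts of the windows, and show 2 of the 3 cores of IFIT5 and 1 of the 2 of IFITM1.
IFIT1, chr10:89392453-89392529, plus strand: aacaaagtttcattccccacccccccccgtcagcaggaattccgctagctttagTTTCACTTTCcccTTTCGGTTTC
IFIT3, upstream start, chr10:89327827-89327884, plus strand: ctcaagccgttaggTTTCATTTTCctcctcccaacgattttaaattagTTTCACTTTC
IFIT3, downstream start, chr10:89332359-89332487, plus strand: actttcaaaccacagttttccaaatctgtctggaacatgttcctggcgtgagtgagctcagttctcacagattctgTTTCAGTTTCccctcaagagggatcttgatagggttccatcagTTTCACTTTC
IFIT5, chr10:89414398-89414558, plus strand: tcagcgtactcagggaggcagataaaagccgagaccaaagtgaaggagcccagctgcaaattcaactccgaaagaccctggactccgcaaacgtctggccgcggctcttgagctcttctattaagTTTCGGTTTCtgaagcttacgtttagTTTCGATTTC
IFITM1, chr11:314000-314029, plus strand: GAAATAGAAActtaagagaaatacacactt
IFITM3, chr11:320883-320912, minus strand: GAAAAGGAAActgttgaGAAACCGAAActa
The stretches of IFIT1, IFIT5 and the upstream start of IFIT3 lie wholly before the gene's GENCODE model. That of the downstream IFIT3 start is intronic for 125 of its 129 bases. The 30 bases shown for IFITM1 and the 30 for IFITM3 fall in exons of longer transcripts of the same genes.

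All 5 genes with a window held at least 2 ISRE cores. Any core was held by 4.38% of 27305 genes with a RefSeq window, and by 3.57% of 35116 windows of the same length. The share with 2 or more was not computed. Counted from the start, with -1 the base before it, the cores of IFIT1 began at -116 and -103. Those of IFIT3 began at -156 and -122 of the upstream start and at -94 and -51 of the downstream one. IFIT5 was the only one of these genes with 3 cores in a single window, at -45, -19 and -4, the last of them running across the start. They began at -40 and -6 in IFITM1, where the nearer one also crosses the start, and at -52 and -35 in IFITM3. The cores of the IFIT genes all read in the TTTC direction on the gene's strand and those of the IFITM genes in the GAAA direction. The gamma-activated site, searched as TTCNNNGAA (which reads the same on both strands), was found in IFITM1 alone among the 5, beginning at -12 and overlapping the nearer ISRE core. It was held by 7.66% of all windows and by 9.38% of all genes with a window. Among 30 other interferon-stimulated genes with a window, listed for comparison, 20 (66.7%) held an ISRE core. A match describes the letters of a window and does not show binding.

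**Figure D1:**
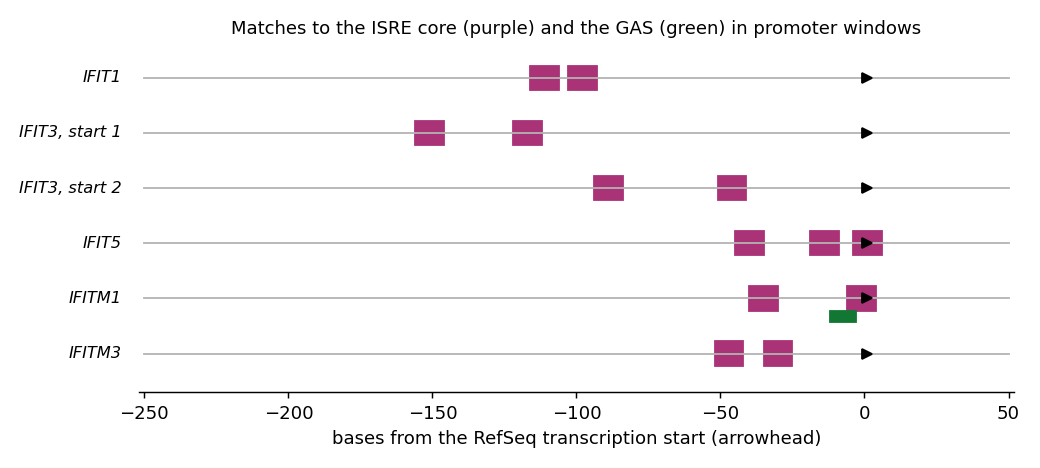
Position of matches to the ISRE core (purple) and the gamma-activated site (green) in the RefSeq promoter windows of 5 members, with the x axis in bases from the transcription start (arrowhead). Every window holds 2 or 3 ISRE cores, and those of IFIT5 and both IFITM genes begin at -52 or nearer to the start.

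The IFITM genes are close copies, which bears on how reads are divided among them. The longest coding sequences of IFITM2 (399 bases) and IFITM3 (402 bases) were 94.0% identical over 399 aligned bases, and those of IFITM1 (378 bases) and IFITM3 90.2% identical over 337. The pair that is most alike is shown from the start codon, in capitals where the letters differ.
IFITM2, coding bases 1 to 117: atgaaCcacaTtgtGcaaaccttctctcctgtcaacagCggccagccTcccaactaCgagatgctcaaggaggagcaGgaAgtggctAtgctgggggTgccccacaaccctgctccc
IFITM3, coding bases 1 to 120: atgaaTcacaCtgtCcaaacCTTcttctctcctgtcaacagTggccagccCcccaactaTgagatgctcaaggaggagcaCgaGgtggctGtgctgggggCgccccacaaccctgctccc
These stretches differ by 10 substitutions and by 3 bases that only IFITM3 has. IFIT coding sequences, of 1437 to 1473 bases, were 64.0% to 73.6% identical between members. Of all 31-base stretches in the GENCODE 29 transcripts of a gene, 35.3% of IFITM1, 45.2% of IFITM2 and 36.4% of IFITM3 also occurred in transcripts of another gene. The share was between 0.0753% (IFIT5) and 7.96% (IFIT2) for the IFIT genes. At 150 bases, the read length given in the labels, IFITM1 shared 20.7% and IFITM2 15.4% of stretches, all with each other, and IFITM3 shared 0. IFIT2 shared 5.05% with the overlapping locus AL353751.1. The division of reads among IFITM1, IFITM2 and IFITM3 is therefore an estimate of the quantifier, and their summed level is given beside the single ones.

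The libraries held 19115530 to 21036063 fragments on gene rows. ZNFX1 itself (ENSG00000124201.15) was measured at 10.8, 17.5 and 11.8 TPM (a level scaled for transcript length and library size) in WT 1, 2 and 3 and at 8.79, 7.33 and 6.83 TPM in KO 1, 2 and 3. All KO libraries lay below all WT libraries (the groups did not overlap in 20.2% of all tested genes, counting both directions), but ZNFX1 did not pass the threshold of 0.05 on the adjusted p (log2 fold change -0.85, SE 0.27, adjusted p = 0.218 by edgeR). Without WT 2 its log2 fold change was -0.53 (SE 0.21, adjusted p = 0.507). WT 2 stood apart from the other WT libraries in interferon-stimulated genes. Relative to the mean of the 6 libraries, the median of 29 such genes outside both families was 1.70 log2 units in WT 2, 0.12 in WT 1 and -0.32 in WT 3. In the KO it ran from -0.69 to -0.25. The results of the members and lists below are therefore also given without WT 2, a choice made after this was known. Of the ovarian and epithelial markers, MUC16 was at 0 in all libraries, PAX8, MSLN and KRT7 were at 0 in WT and at most 0.0188 TPM on average in the KO, and the gene WT1 was at 1.63 and 1.53 TPM. The keratins went opposite ways in value, KRT18 from 53.5 TPM in WT to 78.0 TPM in the KO and KRT8 from 7.68 to 4.63 TPM, neither past the threshold (adjusted p = 0.290 and 0.422 by edgeR). EPCAM had 31, 33.8 and 5.3 reads in WT 1, 2 and 3 and 0 in each KO library. Of 4 mesenchymal markers, VIM was at 1526 TPM in WT and 1524 TPM in the KO, and ZEB1 at 39.8 and 40.0 TPM. CDH2 was at 0 in all libraries. FN1 was at 2.35 and 3.96 TPM (log2 fold change 0.65, SE 0.26, adjusted p = 0.299 by edgeR, and 0.70 without WT 2). Most of the ovarian lineage markers listed were thus at or near 0. The summed TPM of 10 leukocyte markers ran from 0.414 to 2.07 in WT and from 1.80 to 5.11 in the KO, with PTPRC, MS4A1, CD74 and TYROBP at 0 in all libraries. Most of that sum was LYZ, at 0.752 ± 0.750 TPM in WT and 2.51 ± 1.71 TPM in the KO (SD, n = 3 each; log2 fold change 1.70, SE 0.66, adjusted p = 0.293 by edgeR, and 1.499 without WT 2). The summed TPM of 4 endothelial markers ran from 95.1 to 183 in WT and from 114 to 161 in the KO. CDH5 was at 79.9 TPM in WT and 90.8 TPM in the KO, and PECAM1 at 39.6 and 37.2 TPM. KDR was at 10.1 and 10.3 TPM and VWF at 0.843 and 1.06 TPM. The summed TPM of 4 fibroblast markers was at most 0.141. The part of these markers in the results was not tested.

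All 7 genes had reads in every library, without added interferon. In RNA of whole cultures, fewer expressing cells and less RNA per cell cannot be told apart. Levels compared between genes are in TPM, which is scaled for transcript length. IFITM3 was the highest member and IFITM2 the next in all 6 libraries, and IFIT5 was the lowest in all 6. Summed over a family, the IFIT genes made 22.7, 78.9 and 25.2 TPM in WT 1, 2 and 3 and 24.4, 24.5 and 20.7 TPM in KO 1, 2 and 3. The IFITM genes made 582, 908 and 661 TPM in WT and 695, 469 and 539.8 TPM in the KO. Both sums were highest in WT 2, and without it the WT and KO libraries overlapped in both. IFITM3 alone made 75.0% to 81.3% of the IFITM sum.

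**Figure D2:**
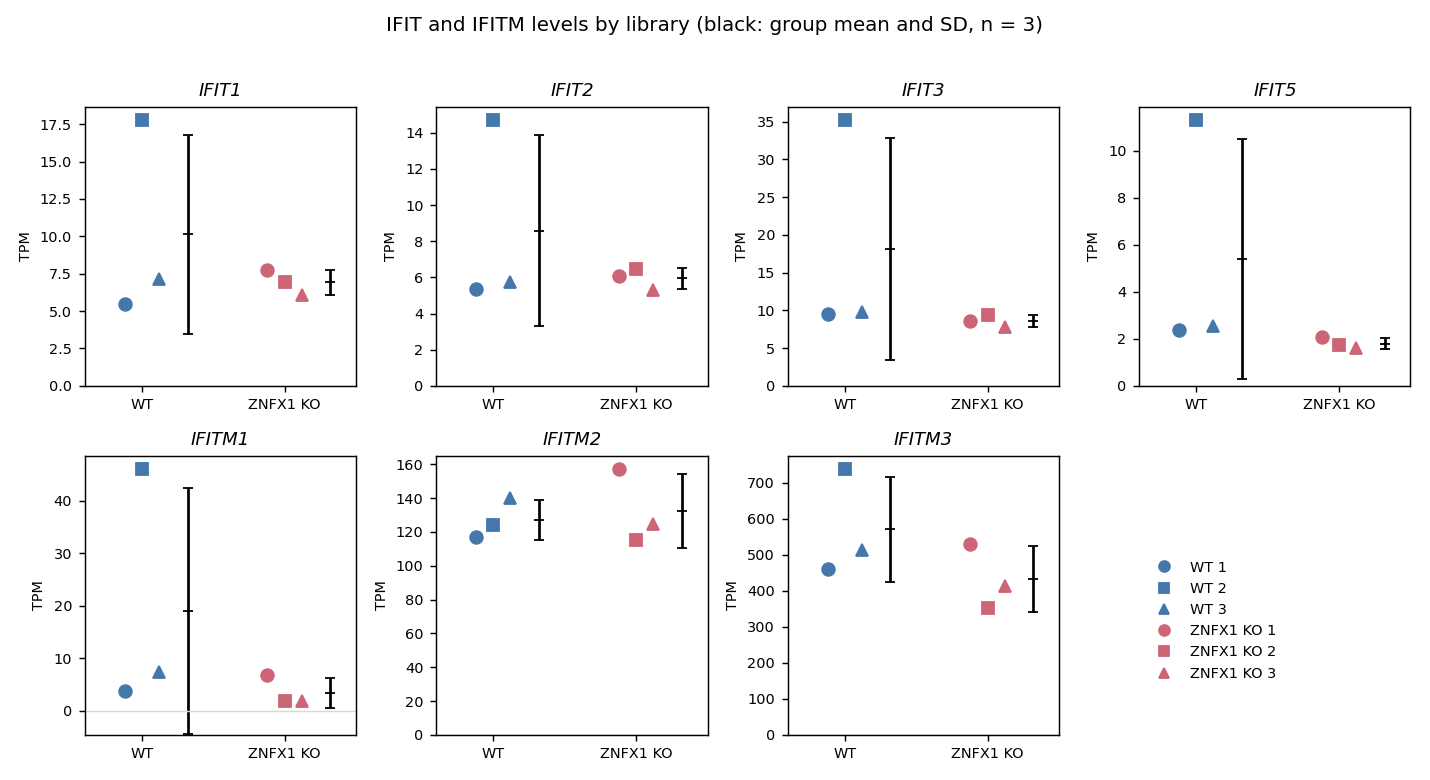
TPM of each member in every library (y axis, linear, 1 panel a gene), for WT (blue) and ZNFX1 KO (red), with the group mean and SD in black (n = 3). WT 2 is the highest library for every member but IFITM2, and the other 5 libraries lie close together for IFIT1, IFIT2 and IFIT3.

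IFIT1, the sensor of unmethylated caps, stood at 5.50, 17.8 and 7.13 TPM in WT 1, 2 and 3 and at 7.72, 6.97 and 6.08 TPM in KO 1, 2 and 3. WT 2 was 2.66 times the mean of the other 5 libraries, while WT 1 was the lowest of all 6 and WT 3 lay within the range of the KO. The means were 10.1 ± 6.66 TPM in WT and 6.92 ± 0.822 TPM in the KO (SD, n = 3 each). The fitted log2 fold change, KO against WT, was -0.62 (SE 0.44, adjusted p = 0.517 by edgeR) and became 0.18 (SE 0.20, adjusted p = 0.876) without WT 2. In CPM, the normalized counts of the test, WT 1 and WT 3 were at 39.2 and 39.3 and the KO libraries between 39.6 and 53.8. IFIT1 thus changed sign with the removal of 1 library, and did not pass the threshold in either fit.

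IFIT2, which forms complexes with IFIT1 and IFIT3, was at 5.35, 14.7 and 5.73 TPM in WT and at 6.08, 6.45 and 5.28 TPM in the KO, in the same order of libraries. Apart from WT 2, its highest library was 1.22 times its lowest. The log2 fold change was -0.61 (SE 0.41, adjusted p = 0.498 by edgeR), and without WT 2 it was 0.12 (SE 0.20, adjusted p = 0.920). As for IFIT1, the mean of the KO (5.94 ± 0.597 TPM, SD, n = 3) lay below that of all WT libraries (8.59 ± 5.28 TPM) but above that of WT 1 and WT 3 (5.54 TPM).

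IFIT3, the partner that stabilises IFIT1 on RNA, was the most abundant IFIT gene in each library. Its levels were 9.47, 35.2 and 9.80 TPM in WT and 8.56, 9.39 and 7.75 TPM in the KO. WT 2 was 3.91 times the mean of the other 5. The other WT libraries lay just above the highest KO library in TPM, but in CPM WT 3, at 29.6, lay below KO 1, at 31.7. The log2 fold change was -1.20 (SE 0.52) with an unadjusted p of 0.0463 and an adjusted p of 0.323 by edgeR. Without WT 2 it shrank to -0.18 (SE 0.19, adjusted p = 0.870).

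IFIT5, a family member that acts as a single unit and binds RNAs with a 5′ phosphate, was at 2.38, 11.3 and 2.54 TPM in WT and at 2.06, 1.73 and 1.60 TPM in the KO. These values rest on 174, 782 and 176 reads in WT and on 152, 109 and 108 reads in the KO. IFIT5 was the only member in which all KO libraries lay below all WT libraries in CPM, with and without WT 2. This was 1 of 7 members, beside 10.8% of all tested genes (12.9% without WT 2). Without WT 2, IFIT1 separated the groups the other way, with all KO libraries above WT 1 and WT 3 in CPM. The share of all genes that did so is not given here. The KO mean (1.80 ± 0.237 TPM, SD, n = 3) was 33.2% of the mean of all WT libraries and 72.9% of the mean of WT 1 and WT 3. The log2 fold change was -1.61 (SE 0.58, unadjusted p = 0.0230, adjusted p = 0.269 by edgeR), and without WT 2 it was -0.45 (SE 0.26, adjusted p = 0.688). The KO libraries were therefore lower in every pairing, but not by more than the test requires.

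IFITM1, the member at the cell surface, varied most. It was at 3.69, 46.0 and 7.41 TPM in WT and at 6.72, 1.80 and 1.75 TPM in the KO, on 62.4, 780 and 113 estimated reads in WT and 118, 27.6 and 26.8 in the KO. WT 2 was 10.8 times the mean of the other 5 libraries, and KO 1 lay between WT 1 and WT 3. Even without WT 2 the highest library was 4.22 times the lowest. The log2 fold change of -2.47 (SE 0.97, unadjusted p = 0.0324, adjusted p = 0.294 by edgeR) became -0.54 (SE 0.62, adjusted p = 0.878) without WT 2. IFITM1 was the third most abundant member in WT 2 and stood lower in the order elsewhere.

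IFITM2, an endosomal member, was the one gene in which WT 2 did not stand apart. It was at 117, 124 and 139.8 TPM in WT and at 157, 116 and 124 TPM in the KO, and WT 2 was 0.949 times the mean of the other libraries. The group means were 127 ± 11.6 and 132 ± 21.8 TPM (SD, n = 3 each). The log2 fold change was 0.03 (SE 0.21, adjusted p = 0.960 by edgeR) and 0.07 without WT 2 (SE 0.24, adjusted p = 0.968). Its sign turned with the scaling, to -0.03 when library totals replaced TMM scaling. The KO 1 library was the highest of all 6.

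IFITM3, the best-studied restriction factor of the family, was at 461, 737 and 513 TPM in WT and at 531, 352 and 414 TPM in the KO. WT 2 was the highest library, at 1.62 times the mean of the others, and KO 1 lay above WT 1 and WT 3. The log2 fold change was -0.43 (SE 0.29, adjusted p = 0.506 by edgeR) and -0.12 without WT 2 (SE 0.26, adjusted p = 0.944). With the reads of IFITM1, IFITM2 and IFITM3 summed, the change was -0.34 (SE 0.28, adjusted p = 0.578), and -0.07 without WT 2 (SE 0.26, adjusted p = 0.971).

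Over both families, 0 of 7 members passed the threshold, where 0.727% of all tested genes did (103 genes, 0.459% lower and 0.268% higher in the KO). At an unadjusted p under 0.05 by edgeR there were 3 members (IFIT3, IFIT5 and IFITM1), beside 15.1% of all tested genes. Without WT 2 this count was 0, beside 1283 of the 14501 genes tested in that fit. With all libraries it was 3 by DESeq2 (beside 2405 genes in all) and 0 by limma-voom (beside 2117 genes in all). DESeq2's Wald test also called 0 members, while calling 3.96% of the genes it tested. The fitted change was negative in 6 of 7 members, and in 51.2% of all tested genes, with a median of -0.62 against -0.01 over all genes. Without WT 2 it was negative in 4 of 7 members, in 50.2% of all genes, and the members' median was -0.12. IFIT1 and IFIT2 account for the change in the count.

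**Figure D3:**
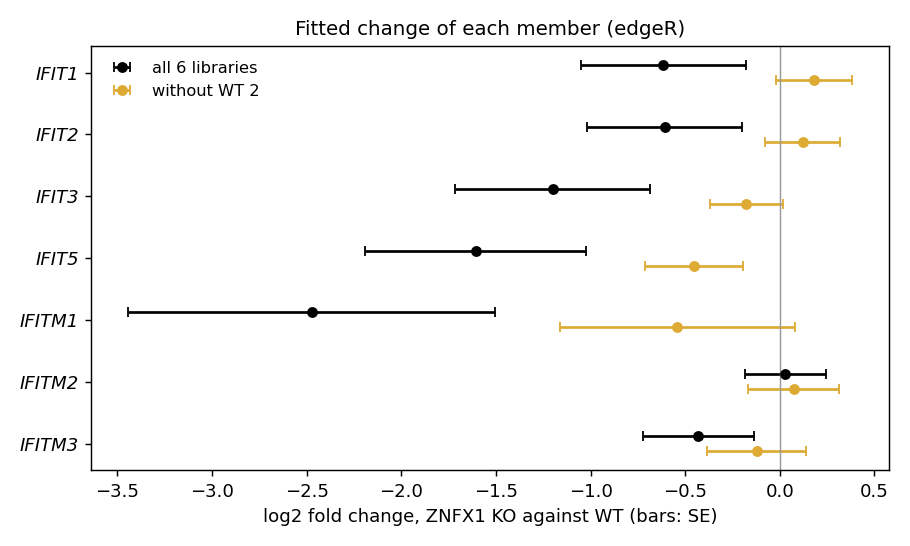
Fitted log2 fold change of each member, ZNFX1 KO against WT (x axis), with all 6 libraries (black) and without WT 2 (yellow). Bars are the standard error. Without WT 2 the values move toward 0 or across it for every member but IFITM2, with IFIT5 and IFITM1 the most negative at -0.45 and -0.54.

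The proportions among members were also compared within each library, where a factor that multiplies all members alike cancels. The ratio of IFIT1 to IFIT5 was 2.31, 1.57 and 2.80 in WT 1, 2 and 3 and 3.75, 4.02 and 3.81 in KO 1, 2 and 3. That of IFIT2 to IFIT5 was 2.25, 1.30 and 2.25 in WT and 2.96, 3.72 and 3.31 in the KO. IFIT5 thus made a smaller part of the IFIT transcripts in each KO library (7.07% to 8.43% of the IFIT sum) than in any WT library (10.1% to 14.3%). The ratio of IFIT3 to IFIT5 was 3.97, 3.11 and 3.85 in WT and 4.16, 5.42 and 4.85 in the KO, also without overlap.

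IFIT3 stood lower against IFIT1 and IFIT2 in the KO as well. The ratio of IFIT1 to IFIT3 was 0.581, 0.505 and 0.728 in WT and 0.902, 0.742 and 0.784 in the KO. That of IFIT2 to IFIT3 was 0.565, 0.417 and 0.585 in WT and 0.710, 0.687 and 0.682 in the KO. Only the ratio of IFIT1 to IFIT2 overlapped between the groups among the IFIT pairs, running from 1.03 to 1.24 in WT and from 1.08 to 1.27 in the KO. In the other family, the ratio of IFITM2 to IFITM3 was 0.254, 0.168 and 0.272 in WT and 0.296, 0.329 and 0.301 in the KO. This ratio depends on how the quantifier divided reads between the genes. Of their 31-base stretches, 22.1% of IFITM2 occurred in IFITM3 and 23.9% of IFITM3 in IFITM2. The ratios of IFITM1 to IFITM2 and to IFITM3 overlapped.

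In all, 6 of the 9 pairs within a family separated the groups, and the same count was found without WT 2 and with reads in place of TPM. Over all 21 pairs of members 8 did so, 9 without WT 2 and 7 with reads. Of the ratios of any 2 tested genes, 20.8% separated the groups, and 25.8% without WT 2. The pairs share members and libraries, so these counts are not independent of each other, and counting separated pairs was chosen after the ratios had been seen. An exact two-sided permutation test of each log2 ratio over the libraries, which was not part of the planned description, gave p = 0.1 for the 8 separated pairs, the smallest that 3 libraries against 3 allow, and at least 0.2 for the other pairs. None of the 21 could pass the threshold, before or after adjustment over the pairs. In all 6 separated pairs within a family, WT 2 lay farthest from the KO, on the same side as WT 1 and WT 3. The other pairs that separated the groups were IFIT5 with IFITM2 and with IFITM3, both lower in the KO, the latter not with reads.

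**Figure D4:**
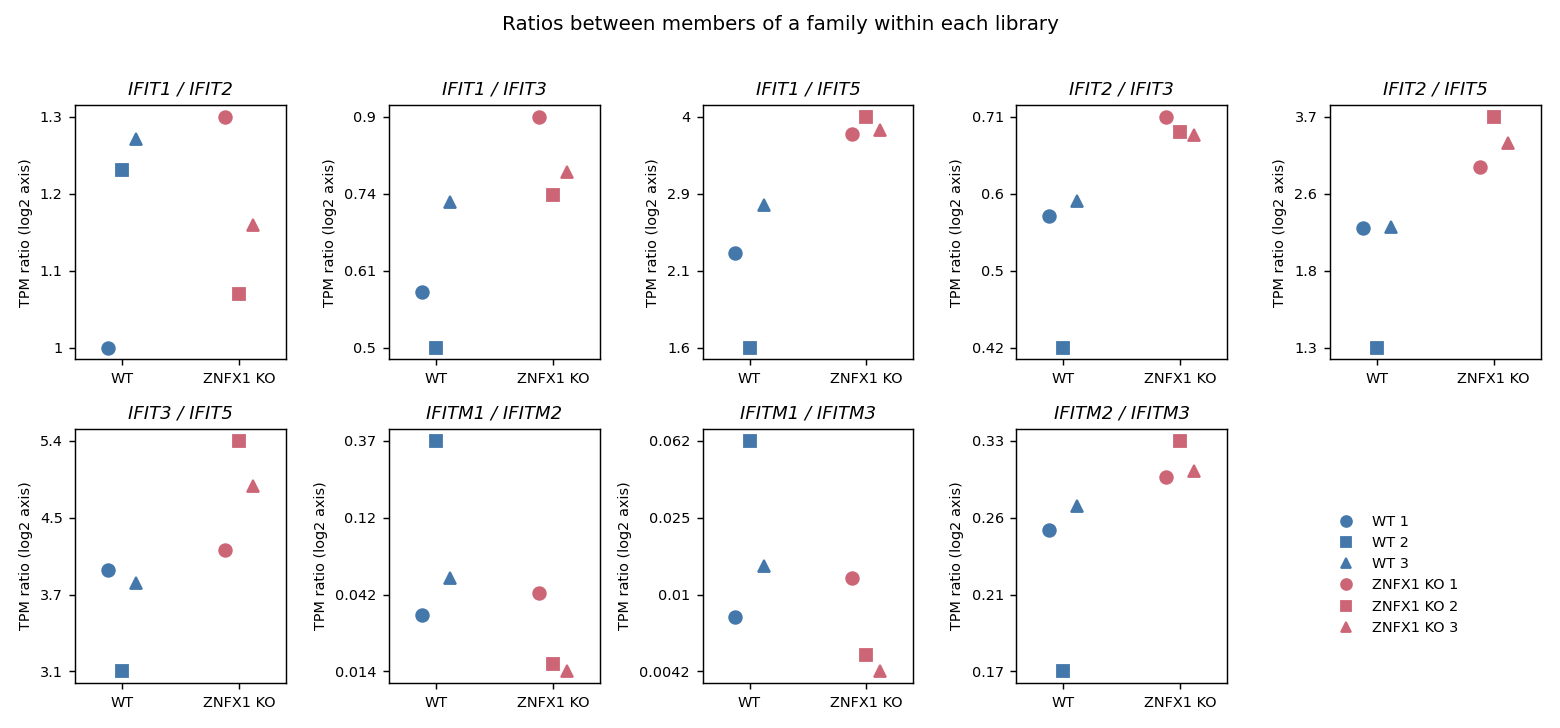
Ratio of TPM between each pair of members of a family (y axis, log2 scale with linear labels) in the WT (blue) and ZNFX1 KO (red) libraries, marked by replicate. The groups do not overlap in 6 of 9 panels, and in those the KO ratio is the higher one.

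The pathway upstream was present in both groups. For it and the lists below, the shares over all tested genes were 51.2% negative (50.2% without WT 2) and 0.727% called. Of 13 genes of the interferon receptor, ISGF3 and its regulators, 0 passed the test in either direction and 10 had a negative change, with a median of -0.32 that became -0.16 without WT 2 (8 of 13 negative). IRF9, the DNA-binding subunit of ISGF3, had a log2 fold change of -1.13 (SE 0.41, adjusted p = 0.269 by edgeR), and of -0.58 without WT 2. JAK1, the receptor kinase, had a log2 fold change of 0.17 (SE 0.24, adjusted p = 0.758), and of 0.03 without WT 2. Of 9 interferon genes 0 were abundant enough to be tested, 4 were at 0 in all libraries, and their summed level was at most 0.285 TPM in any library, so that a difference in interferon mRNA was not detectable at this depth.

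Among 29 tested interferon-stimulated genes outside both families, all 29 had a negative change, beside 51.2% of all tested genes, with a median of -1.27. Without WT 2, 25 of 29 had one, beside 50.2% of all genes, with a median of -0.43. By the test, 1 of the 29 was lower in the KO and 0 were higher, beside 0.459% and 0.268% of all tested genes. The gene called was CXCL11, an interferon-induced chemokine, at 4.37 ± 1.27 TPM in WT and 0.656 ± 0.0988 TPM in the KO (SD, n = 3 each; log2 fold change -2.74, SE 0.27, adjusted p = 0.00641 by edgeR). CXCL11 did not rest on WT 2, where it had 163 reads beside 159 and 223 in the other WT libraries and 22 to 30.1 in the KO, and it was called without WT 2 too (-2.78, adjusted p = 0.0126). The call was lost without KO 2 (-2.74, adjusted p = 0.0700 by edgeR) or without KO 3 (-2.63, adjusted p = 0.0696). The median of these 29 genes in WT 2, 1.70 log2 units above the mean of the libraries, was passed by IFIT3 (1.78), IFIT5 (2.08) and IFITM1 (3.12) in the same library. IFIT1 (1.32), IFIT2 (1.25), IFITM3 (0.73) and IFITM2 (0.09) stood below it there.

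**Figure D5:**
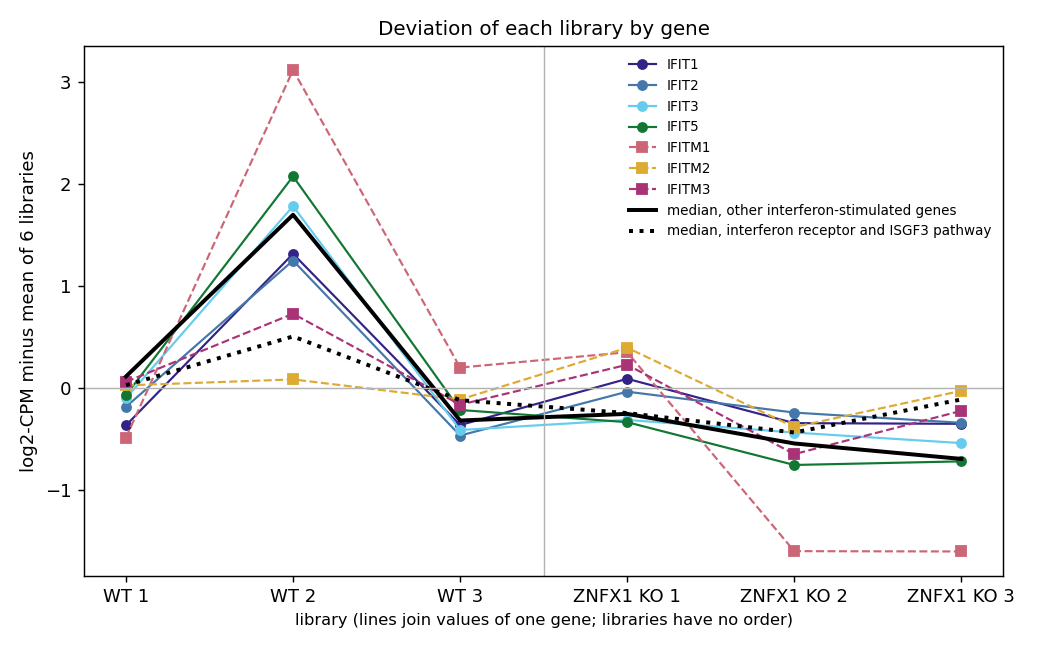
Deviation of each library from the mean of all 6 (y axis, log2-CPM) for the 7 members, with the median of 29 other interferon-stimulated genes (solid black) and of 13 pathway genes (dotted black). All members but IFITM2 peak in WT 2, and IFITM1 is lowest in KO 2 and KO 3, at -1.59 and -1.60.

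The genes on which IFIT and IFITM proteins act, and those that modify them, were listed as well. Of 19 genes for mRNA cap methylation and the translation factor eIF3, which IFIT1 and IFIT2 bind, 0 passed the test and 7 had a negative change, with a median of 0.10. Without WT 2 the median turned to -0.03 and 10 of 19 were negative. The most abundant, given with their log2 fold changes, were the eIF3 subunits EIF3E (0.03, SE 0.20), EIF3D (-0.09, SE 0.20) and EIF3K (0.18, SE 0.20). Without WT 2 these were -0.12, -0.03 and 0.04, so that EIF3E turned sign. Of 8 IFITM cofactors and modifiers, such as AP2M1, the clathrin adaptor subunit that binds the sorting signal of IFITM3, 0 passed the test and 1 had a negative change, with a median of 0.39 and of 0.25 without WT 2. AP2M1 was at 74.8 ± 20.0 TPM in WT and 83.5 ± 2.09 TPM in the KO (SD, n = 3 each; log2 fold change 0.15, SE 0.17, adjusted p = 0.686 by edgeR, and 0.11 without WT 2).

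Genes that lie beside the clusters were listed to compare the members with their surroundings. Of 7 listed neighbours of the IFIT cluster, 4 were tested, 0 passed and 0 had a negative change, with a median of 0.24 and of 0.11 without WT 2. The most abundant, with their log2 fold changes, were LIPA, the lysosomal acid lipase (0.25, SE 0.21), KIF20B, a mitotic kinesin (0.62, SE 0.36), and PANK1, a pantothenate kinase (0.24, SE 0.31), and without WT 2 these were 0.13, 0.29 and 0.09. Of 14 listed neighbours of the IFITM cluster, 11 were tested, 0 passed and 8 had a negative change, with a median of -0.19 and of -0.03 without WT 2. The most abundant of these were PSMD13, a proteasome subunit (0.56, SE 0.24), RNH1, the ribonuclease inhibitor (-0.14, SE 0.23), and RIC8A, a G protein chaperone (0.12, SE 0.17), and without WT 2 these were 0.36, -0.04 and 0.14. The list also holds IRF7, which is itself induced by interferon. Of 7 further loci of the families, IFIT1B, IFITM5, IFITM9P and IFIT6P were at 0 in all libraries and none of the 7 was abundant enough to be tested.

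The genes whose pattern over the 6 libraries was most like the mean of the IFIT members were IRF7, ATP6V0D2, SLC7A6OS, PARP14 and METRNL, with Pearson correlations of log2-CPM from 0.98 to 0.99. They were picked from all tested genes for this likeness, and the points share WT 2. Over the other 5 libraries the correlation was 0.47 for PARP14, 0.61 for METRNL and between 0.89 and 0.94 for IRF7, ATP6V0D2 and SLC7A6OS. IRF7, an interferon-induced transcription factor of the antiviral response, was at 25.4 TPM in WT 2 and between 6.43 and 7.63 TPM in the other 5 libraries. PARP14, an interferon-induced ADP-ribosyltransferase, was at 44.2 TPM in WT 2 and between 8.05 and 11.1 TPM elsewhere. SLC7A6OS varied much less, at 5.84 TPM in WT 2 and between 4.05 and 5.04 TPM elsewhere. IFITM1 weighed most in the mean of the IFITM members, since genes were not scaled to a like spread. Its deviations ran from -1.60 to 3.12 log2 units, those of IFITM2 from -0.38 to 0.40 and those of IFITM3 from -0.64 to 0.73. The genes most like that mean were RNF130, ZNF589, OAS3, CCDC159 and PATL2 (0.99 to 1.00, and 0.95 to 0.99 without WT 2). Of these OAS3, an enzyme that makes the activator of RNase L, was at 60.0 TPM in WT 2 and between 12.98 and 30.6 TPM elsewhere, while RNF130 moved only between 19.1 and 26.3 TPM.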

How the data were processed

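RNA of 3 WT and 3 ZNFX1 KO libraries of TYK-nu was sequenced after a stranded total RNA preparation, per the labels. Per the labels, the authors used Salmon to obtain estimated counts of fragments for each gene. The deposited tables also give TPM and effective length. The submitters' processing notes list FastQC, Trimmomatic, Salmon and DESeq2. Build, annotation and strand setting were not given in the sources used here. A table has 62260 gene rows and 134909 rows of transcripts not joined to a gene, with 9.93% to 10.7% of the fragments. They held at most 3.46% of the reads of a member (IFITM2 in WT 2) and were left out, except in 1 alternative. No column of per-sample values was set aside (0).

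The estimated counts were rounded, filtered with filterByExpr (14166 genes, at least 99.8% of gene fragments) and scaled by TMM (factors 0.958 to 1.04). The test was edgeR 4.0.16's quasi-likelihood test (two-sided, genotype only, R 4.3.3) with Benjamini-Hochberg adjustment over all genes tested and a threshold of 0.05. Standard errors are log2 fold changes over the root of F. CPM values are TMM-scaled, with a prior count of 2 for log2-CPM. The test was tried on simulated data that held no library set apart like WT 2, and the outcome is not reported here. Libraries of a group differed beyond sampling noise (chi-square over degrees of freedom of 27.7 or more), so none was a copy of another in its group. This cannot tell separate cultures from separate preparations of the same culture. Ratios of members were also compared by an exact permutation test, added after the data were seen. Groups that do not overlap were judged on CPM, except for ratios, which use TPM. Coordinates are those of GENCODE 29 (GRCh38). Promoter sequences are those of RefSeq (GRCh38.p14), and the set used here held no window for IFIT2 or IFITM2. Coding sequences were aligned globally.

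The members and the lists were chosen with earlier results of these data known. The rule for named genes was the 7 members and ZNFX1, per list the called genes or else at most the 3 most abundant, and for each family the 5 genes with the most similar pattern. Single values of some listed genes are not reported here. IRF7 in the list of neighbours, the loci at 0 and the markers named go beyond it and were chosen after their values were seen. The alternatives were RLE scaling, library totals, no filter, 1 CPM in 3 libraries, DESeq2 1.42.0, limma 3.58.1 on voom values and on log2(TPM + 1) and log2(TPM + 0.1), an effective length offset, a replicate block, joined transcript rows, summed IFITM reads, CPM levels, and each library left out. Levels without WT 2 were added after the data were seen.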

Additional observations from a re-analysis of the deposited data

How the results depend on the processing

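All 7 members missed the threshold in every alternative but 1. With no filter on low counts 2 members were called, IFIT5 (log2 fold change -1.56, adjusted p = 0.0361 by edgeR) and IFITM1 (-2.42, adjusted p = 0.0337), and neither was called by DESeq2 (adjusted p = 0.0599 and 0.301). Leaving out 1 library moved IFIT1 between -0.89 and 0.18 and IFIT2 between -0.88 and 0.12, positive only without WT 2. IFITM2, near 0, was -0.0318 with library totals, -0.00462 with limma-voom, -0.00344 with the replicate block, -0.34 when summed with IFITM1 and IFITM3, and between -0.19 and 0.21 with 1 library left out. IFIT3, IFIT5, IFITM1 and IFITM3 kept a negative sign in all 17 alternative fits of single genes, with lowest adjusted p of 0.0672, 0.0361, 0.0337 and 0.227. The KO mean as a share of the WT mean moved without WT 2 to 72.9% for IFIT5 and 61.8% for IFITM1, by more than the summed relative SDs of both groups. The number of genes called over all genes was 602 with no filter, 595 with DESeq2, 48 and 66 on log2(TPM + 1) and log2(TPM + 0.1), 187 with transcript rows joined, 14 with the replicate block, and between 2 (without ZNFX1 KO 2) and 1315 (without WT 3) with 1 library left out; the cause was not tested. Deviations of same-numbered libraries correlated at 0.13, -0.04 and 0.01. ZNFX1 KO 1 correlated best with WT 1, at the highest value of all pairs. ZNFX1 KO 2 correlated best with WT 3 (0.09) and ZNFX1 KO 3 with WT 2 (0.04), so the numbers give no pairing that holds throughout. Under the replicate block 0 members were called, and CXCL11 was at an adjusted p of 0.0537 (edgeR). IFITM1, at 26.8 to 118 reads outside WT 2, is the member most limited by depth.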
